A study of Mus musculus with 6 samples.

Results

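The 10 genes described here make and load the peptides that cells present on MHC class I molecules. They are B2m, H2-K1, H2-D1, Tap1, Tap2, Tapbp, Psmb8, Psmb9, Psmb10 and Nlrc5. They were taken by symbol from a table of 16729 genes, all 10 had a row in it, and all 10 passed the filter on low counts. RNA-seq had been run on intracranial tumors of the murine GBM line mG7080, to learn what the loss of Endocan, the secreted product of Esm1, does to a tumor. WT hosts gave 3 libraries (WT 1 to WT 3), and hosts with Esm1 knocked out gave another 3 (KO 1 to KO 3).

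The hosts of both groups were C57BL/6 mice for which the labels list no drug or radiation, and the 2 groups differed by the Esm1 genotype. Their age is not in the sample labels, and the study's own accounts of it differ. The deletion was carried by the host and not by the injected cells, which came from a single gliomasphere culture grown from a spontaneous tumor of genetically engineered mice. Each library therefore held RNA of tumor cells, of infiltrating host cells and of adjacent brain together. In such bulk samples, fewer cells of a type and less RNA per cell cannot be told apart.

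MHC class I molecules show fragments of a cell's own proteins to CD8 T cells. The proteasome cuts proteins into peptides, the TAP transporter carries these into the endoplasmic reticulum, and the peptide loading complex fits them into a heavy chain paired with beta-2 microglobulin. Interferon-gamma, in part through IRF1, raises the genes of this pathway together, and the transactivator NLRC5 acts on their promoters. In healthy brain most cells carry little class I, and microglia, endothelium and invading leukocytes carry more.

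Sequence near the starts of B2m, H2-K1 and H2-D1 is shown, and whether it bears on the pattern that the members shared was not tested. In each of them KO 2 was above, and KO 1 and KO 3 were below, every WT library. These stretches lie where factors of class I transcription, such as NF-kappa B, interferon regulatory factors and the X box complex, are known to bind. Sequences are from RefSeq on GRCm38.p6 (mouse), whose promoter table held 8 of the 10 members. Tap2 and Nlrc5 had no entry. Each is written 5′ to 3′ on the strand of its gene, and capitals mark matches to the motifs listed after them. For B2m, the 150 bases at chr2:122147537-122147686 (plus strand) end at the first base of the GENCODE gene. For H2-K1, the 150 bases at chr17:34000348-34000497 (minus strand) end just before that gene's first base. For H2-D1, 30 bases at chr17:35262915-35262944 (plus strand) are given, which GENCODE places in an exon of a longer transcript.
B2m: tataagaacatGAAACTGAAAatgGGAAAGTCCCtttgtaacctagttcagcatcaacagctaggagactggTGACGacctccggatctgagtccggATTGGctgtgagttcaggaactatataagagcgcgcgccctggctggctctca
H2-K1: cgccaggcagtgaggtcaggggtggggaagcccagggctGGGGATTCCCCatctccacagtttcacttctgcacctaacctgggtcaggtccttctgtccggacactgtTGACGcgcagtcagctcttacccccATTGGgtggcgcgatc
H2-D1: ccagggctGGGGATTCCCCatctcctcagt

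The motifs were searched on both strands of the 300-base RefSeq windows, which run from 250 bases before to 50 bases after a start. The core of the interferon-stimulated response element, GAAA, 2 free bases and GAAA again, was found in B2m alone of the 8 members, as the first run of capitals, and in 3.99% of the 27025 genes in the promoter table. The kappa B consensus was found in 3 members, B2m, H2-K1 and H2-D1, against 9.55% of genes. It matched the second run of capitals in B2m and overlapping stretches of the first run in H2-K1 and H2-D1. TGACG, a core shared by the X box and cyclic AMP response elements, was found in B2m, H2-K1, H2-D1, Tap1 and Psmb9 (5 of 8, against 23.05% of genes). CCAAT, printed above as its complement on the other strand, was found in 6 of 8 members against 41.1% of genes. TTCNNNGAA, the gamma-activated site, was found in Psmb8 alone, against 9.55% of genes. These matches describe the letters in the windows, and binding was not measured here.

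Tap1 and Psmb9 lie head to head on chromosome 17. Their RefSeq starts are separated by 225 bases, their windows share 275 of 300 bases on opposite strands, and their matches to TGACG and CCAAT are therefore not independent. By the GENCODE annotation of GRCm38, 7 members lie on chromosome 17, from Tapbp (33915899 to 33929292) and H2-K1 (33996017 to 34000347) through Psmb9 (34181987 to 34187764), Tap1 (34187553 to 34197225), Psmb8 (34197721 to 34201454) and Tap2 (34203527 to 34216321) to H2-D1 (35262730 to 35267499), all within or beside the mouse MHC. B2m lies on chromosome 2 (122147686 to 122153083). Psmb10 (105935735 to 105938444) and Nlrc5 (94434356 to 94527272) lie far apart on chromosome 8. Counts of some members are uncertain because of shared sequence. Of all 50-base windows in their annotated transcripts, some also occur in transcripts of another gene. The share was 9.63% in H2-K1, 11.6% in Tap2, 11.9% in Psmb8, 12.8% in H2-D1 and 23.2% in Tapbp. It was 0.338% in Nlrc5, 3.33% in Tap1 and 4.19% in Psmb9, and 0% in B2m and Psmb10. Exons of Tapbp overlap Zbtb22, those of Tap2 and Psmb8 overlap other gene models, and Tap1 shares 212 exon bases with Psmb9.

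Depth and labels were examined first. Library totals lay between 17632070 and 22241832 counted reads, so that 1 read was worth 0.0445 to 0.057 CPM (read counts scaled to the library total with TMM factors). Members had 30 to 38771 reads per library. Esm1 itself had 25, 21 and 82 counts in the WT libraries, and 1, 24 and 4 in KO 1, KO 2 and KO 3. The count in the library labelled KO 2 was thus like those of WT 1 and WT 2, which goes against its label, although the injected cells also carry the gene. Tests of the members are given with all 6 libraries, as labelled, and without KO 2. The labels do not say whether the tumors of a group were made on separate days, and p-values measure the spread between these libraries.

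In KO 1 and KO 3, all 10 class I genes were lower than in every WT library, and in the library labelled KO 2 all 10 were higher than in every WT library. An order of this kind, with KO 2 above and KO 1 and KO 3 below all 3 WT libraries, was found in 5.52% of the 16166 genes tested. KO 1 and KO 3 were below every WT library in 40.4% of genes, and KO 2 was above every WT library in 24.1%. Relative to the WT mean, members were 2.67-fold (Psmb10) to 11.6-fold (Psmb8) lower in KO 1, with a median of 7.22-fold. In KO 3 they were 2.93-fold (Psmb10) to 58.8-fold (Psmb9) lower, with a median of 19.8-fold. In KO 2 they were 1.19-fold (B2m) to 1.82-fold (Psmb9) higher, with a median of 1.41-fold. By comparison, the highest WT library exceeded the lowest by 1.08-fold (Nlrc5) to 1.78-fold (Psmb8). The plot of CPM by library shows this order for each gene.

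**Figure D1:**
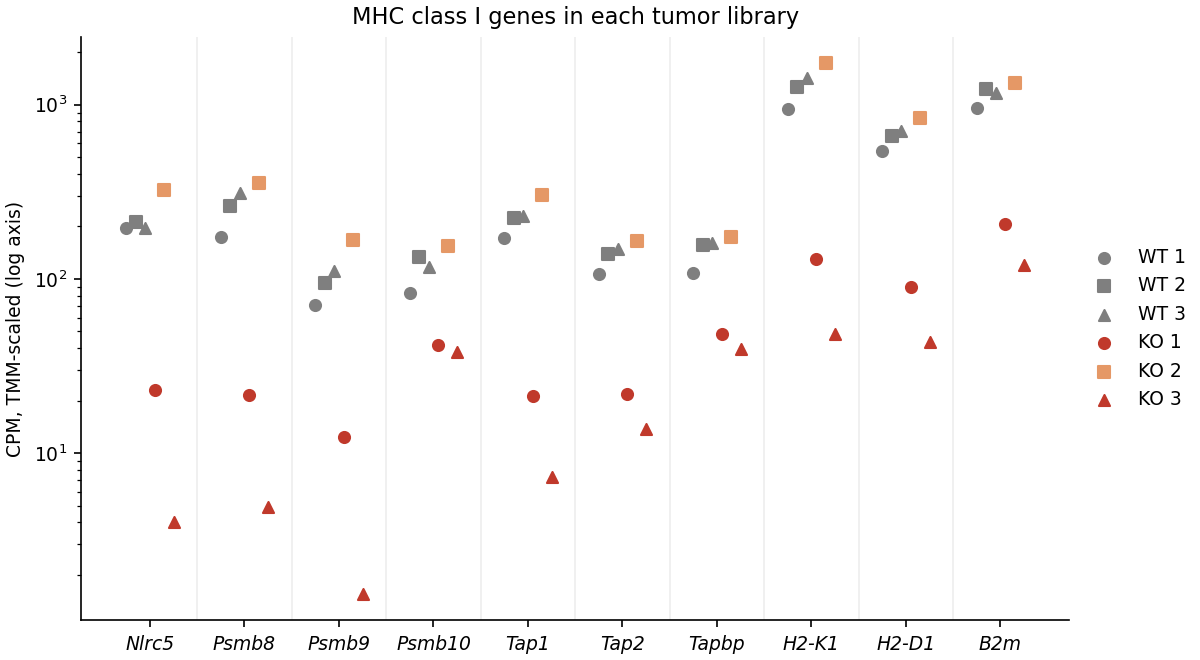
CPM (TMM-scaled, log axis) of each of the 10 class I genes in the 6 tumor libraries, with WT in grey, KO 1 and KO 3 in red and the library labelled KO 2 in orange. In every gene KO 2 is the highest point, KO 1 and KO 3 are below the 3 WT points, and the distance is smallest for Psmb10 and Tapbp.

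With all 6 libraries, no member passed the test between KO and WT hosts. All 10 log2 fold changes (KO against WT) were negative, from -1.04 for B2m to -0.53 for Psmb10, with a median of -0.95 against -0.02 over all genes tested. Adjusted p-values of the members ran from 0.374 to 0.736 (edgeR's quasi-likelihood test with Benjamini-Hochberg adjustment), and 0 of the 10 members were at an unadjusted p under 0.05. The background was 0% in either direction, since 0 of 16166 genes were called at an adjusted p under 0.05 by this test, whereas 4385 were at an unadjusted p under 0.05. Other tools called 410 genes lower and 709 higher (DESeq2), 39 and 66 (edgeR's exact test), or 0 and 0 (limma-voom). Of the members, 0 were called by the exact test and by limma-voom, while DESeq2 gave an adjusted p to only 4 (Tapbp, Psmb8, Psmb9 and Psmb10), called 0 of these and could not call the other 6. The size of the difference also depended on the tool, since limma-voom, which averages on the log scale, gave a median of -2.32 for the 10 members over the same 6 libraries.

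Without the library labelled KO 2, all 10 members were called lower in the KO libraries. The background of this comparison was high, at 28.3% of 16279 genes called lower and 24.5% called higher. Of the 10 members, 8 were lower by more than 4-fold, beside 7.48% of all genes tested that were called lower by that much. Their median log2 fold change was -3.48, beside -0.02 over all genes tested. Without KO 2 and WT 3, the libraries missing from the table of RNA-seq results that accompanies the study, 9 of 10 members were called against 13.9% of 16183 genes called lower (2.87% were called higher), with a median of -3.38. The gene that missed the threshold in these 4 libraries was Psmb9, at an adjusted p of 0.0553 by edgeR. When any other single library was left out, 0 members were called, and so were 0 of all genes tested, in either direction. Over all 18 alternatives tried, adjusted p-values of single members ran from 6.32e-19 (Tap2, DESeq2 without KO 2) to 0.973 (Psmb9, edgeR without KO 3).

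**Figure D2:**
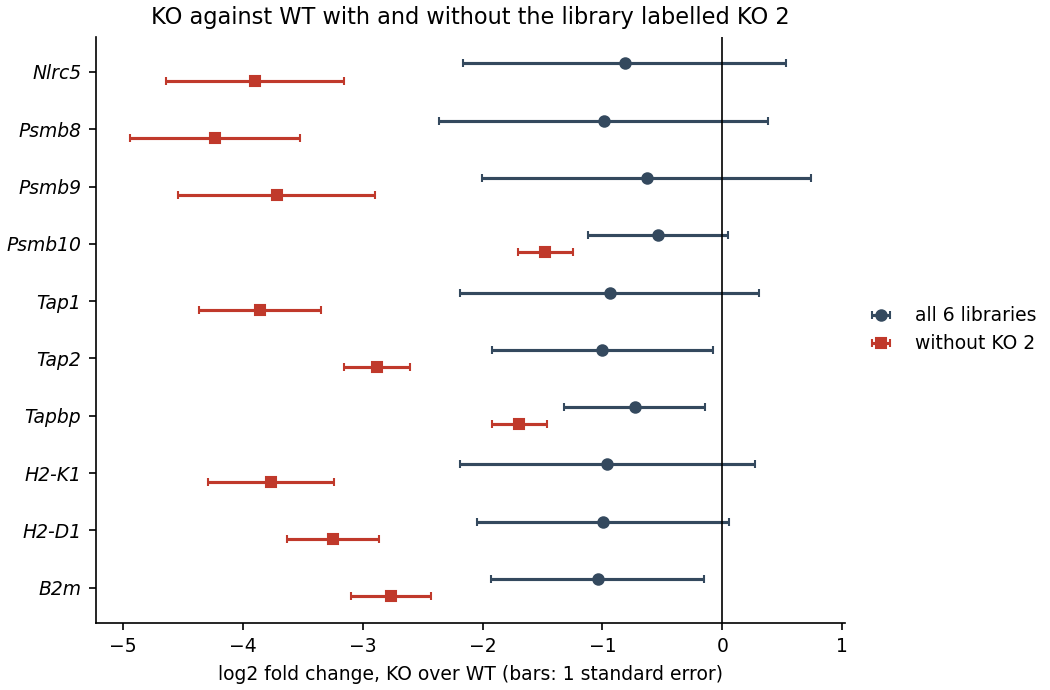
Log2 fold change (KO over WT) of each class I gene from edgeR's quasi-likelihood fit, over all 6 libraries (dark circles) and without KO 2 (red squares), with bars of 1 standard error. Without KO 2 every estimate lies farther from 0 and has a narrower bar, from -4.23 for Psmb8 to -1.48 for Psmb10.

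The heavy and light chains of the class I molecule were the most abundant members. B2m encodes beta-2 microglobulin, the invariant light chain. It measured 951, 1231 and 1166 CPM in the WT libraries, and 207, 1328 and 120.0 CPM in KO 1, KO 2 and KO 3. Both KO 1 and KO 3 were far below the WT range, while KO 2 lay just above it. The group means were 1116 ± 147 CPM in WT and 552 ± 674 CPM in KO (SD, n = 3 each), so that the spread among the KO libraries exceeded the difference. For B2m the fit over 6 libraries gave a log2 fold change of -1.04 with a standard error of 0.89 (adjusted p = 0.399, edgeR), and the fit without KO 2 gave -2.77 with 0.33 (adjusted p = 0.00798).

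H2-K1 encodes the classical heavy chain H-2K. Its level was 946, 1267 and 1427 CPM in the WT libraries, against 129, 1726 and 48.5 CPM in KO 1, KO 2 and KO 3. KO 3 was the lowest library and KO 2 the highest. H2-D1 encodes the other classical heavy chain, H-2D, and measured 542, 657 and 702 CPM in WT and 89.7, 836 and 43.5 CPM in KO. Its order over the 6 libraries was that of H2-K1, with a smaller distance between KO 3 and WT (14.6-fold). Over 6 libraries, log2 fold changes and standard errors were -0.96 (1.23) for H2-K1 and -0.99 (1.05) for H2-D1. Without KO 2 it was -3.77 (0.52, adjusted p = 0.00801, edgeR) for H2-K1 and -3.25 (0.38, adjusted p = 0.00798, edgeR) for H2-D1.

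The ratio of heavy to light chain varied between libraries. In FPKM, the deposited value per transcript length, H2-K1 amounted to 0.518, 0.536 and 0.638 of B2m in WT 1, WT 2 and WT 3. It amounted to 0.325, 0.677 and 0.211 of B2m in KO 1, KO 2 and KO 3, so that KO 1 and KO 3 were below and KO 2 above the WT range. For H2-D1 over B2m the WT ratios were 0.282, 0.264 and 0.298, and the KO ratios were 0.214, 0.311 and 0.179, in the same order. On the log2 scale of counts, KO minus WT was -0.64 for H2-K1 over B2m and -0.30 for H2-D1 over B2m. Neither passed an exact two-sided permutation test over the 6 libraries (p = 0.4 each, and 0.4 after adjustment over 5 ratios), whose smallest possible p is 0.1. Without KO 2 the differences were -1.10 and -0.52, each at p = 0.1 in the exact test, the smallest that 2 against 3 libraries allow.

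The transporter genes lay farther below WT in KO 1 and KO 3 than the gene of their loading partner. Tap1 and Tap2 encode the subunits of the TAP transporter. Tap1 was at 171, 223 and 230.0 CPM in the WT libraries and at 21.3, 302 and 7.29 CPM in KO 1, KO 2 and KO 3, which places KO 3 28.5-fold below the WT mean. Tap2 was at 107, 139 and 149 CPM in WT and at 21.9, 165 and 13.7 CPM in KO, with KO 3 lower by 9.57-fold. Tapbp encodes tapasin, which holds the empty heavy chain next to TAP. It was at 109, 157 and 160 CPM in WT and at 48.0, 173 and 39.6 CPM in KO, and its distance in KO 3 (3.58-fold) was among the smallest of the 10 genes.

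With 6 libraries, log2 fold changes and standard errors were -0.94 (1.25) for Tap1, -0.9997 (0.92) for Tap2 and -0.73 (0.59) for Tapbp, and Tapbp had the smallest adjusted p of the members (0.374, edgeR). Without KO 2 it was -3.86 (0.51) for Tap1, -2.88 (0.28) for Tap2 and -1.69 (0.23) for Tapbp, each at an adjusted p of 0.00798 (edgeR). Because 29.0% of the exon bases of Tapbp and 18.5% of those of Tap2 lie in other gene models too, part of their reads may have been left uncounted or given to a neighbour.

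The immunoproteasome subunits spanned the widest range. Psmb8, Psmb9 and Psmb10 encode LMP7, LMP2 and MECL-1, the catalytic subunits that interferon puts in place of Psmb5, Psmb6 and Psmb7. Psmb8 measured 173, 262 and 309 CPM in the WT libraries and 21.4, 355 and 4.89 CPM in KO 1, KO 2 and KO 3. Psmb9 measured 70.8, 94.3 and 110.5 CPM in WT and 12.4, 167 and 1.56 CPM in KO. Its value in KO 3 rested on 30 reads, with an exact 95% counting interval of 20.2 to 42.8 reads, and was still far below the 218 reads of KO 1. Psmb10 measured 83.3, 134 and 116 CPM in WT and 41.6, 154 and 38.0 CPM in KO.

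KO 3 was thus 58.8-fold below the WT mean in Psmb9, 50.7-fold in Psmb8 and 2.93-fold in Psmb10. Without KO 2, Psmb8 had a log2 fold change of -4.23 with a standard error of 0.71 (adjusted p = 0.0102, edgeR), and Psmb9 one of -3.72 with 0.82 (adjusted p = 0.0171). That of Psmb10, the smallest among the members, was -1.48 (0.23, adjusted p = 0.00914, edgeR). Over all 6 libraries the values were -0.99 (1.37), -0.63 (1.37) and -0.53 (0.58), in the same gene order.

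The constitutive partners of these subunits varied far less. Psmb5 measured 67.7, 91.1 and 87.5 CPM in WT and 51.7, 64.9 and 63.1 CPM in KO 1, KO 2 and KO 3. Psmb6 ranged from 88.5 to 115 CPM in WT and from 72.9 to 93.9 CPM in KO, and Psmb7 from 125 to 174 CPM in WT and from 99.997 to 146 CPM in KO. In FPKM, Psmb8 stood at 1.82, 2.05 and 2.51 times Psmb5 in the WT libraries, at 0.296 and 0.0552 times in KO 1 and KO 3, and at 3.89 times in KO 2. Psmb9 stood at 1.03, 1.07 and 1.23 times Psmb6 in WT, at 0.208, 2.28 and 0.0275 times in KO 1, KO 2 and KO 3. The immunoproteasome subunit was therefore ahead of its counterpart in 4 libraries and behind it in KO 1 and KO 3, for both pairs.

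In FPKM Psmb10 never exceeded Psmb7, but in reads it did so in KO 2 (3468 against 3273). Its FPKM was 0.5096, 0.5902 and 0.5105 of that of Psmb7 in WT, and 0.318, 0.808 and 0.2604 in KO 1, KO 2 and KO 3. On the log2 scale of counts, KO minus WT was -2.40 for Psmb8 over Psmb5, -2.23 for Psmb9 over Psmb6 and -0.40 for Psmb10 over Psmb7. Each gave p = 0.4 in the exact permutation test (0.4 adjusted over 5 ratios). Without KO 2 these differences were -4.04, -3.87 and -0.90, each at p = 0.1 in the exact test, which is the smallest p that 2 against 3 libraries allow.

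**Figure D3:**
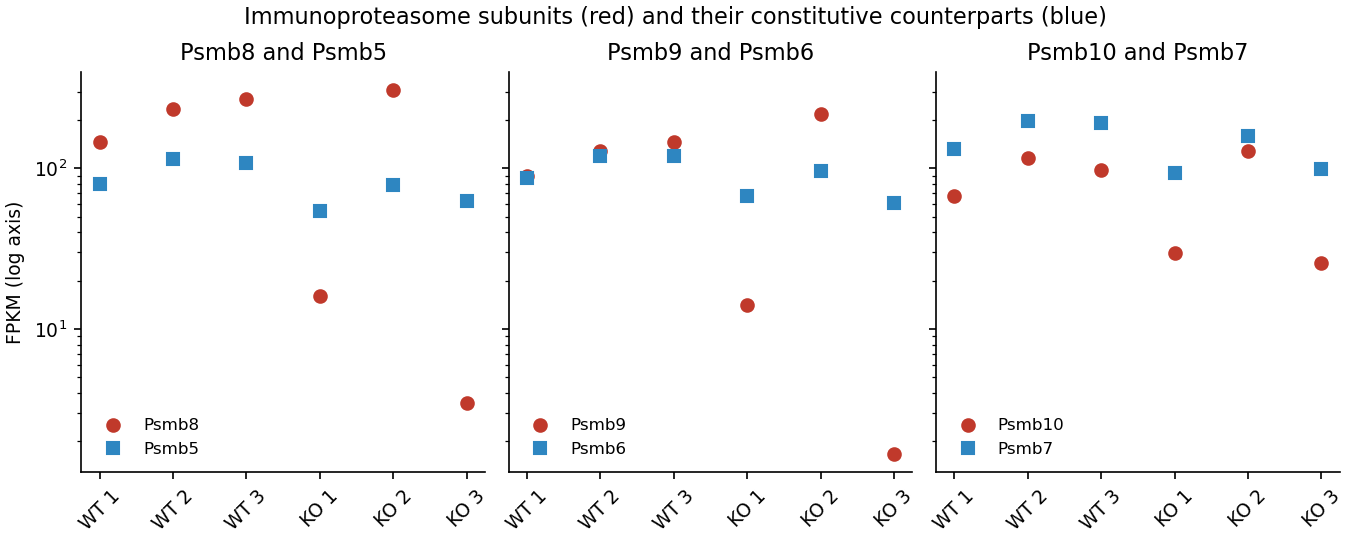
FPKM (log axis) of the immunoproteasome subunits Psmb8, Psmb9 and Psmb10 (red circles) and of their constitutive counterparts Psmb5, Psmb6 and Psmb7 (blue squares) in each library. In KO 1 and KO 3 the red points of all 3 pairs lie below the blue ones, with the largest gap for Psmb9 in KO 3 (0.0275 of Psmb6).

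Nlrc5, the class I transactivator, was the least abundant member per length. It measured 197, 213 and 196 CPM in the WT libraries, which is the narrowest WT range of the 10 genes. In KO 1, KO 2 and KO 3 it measured 23.05, 322 and 4.01 CPM. KO 3 was 50.3-fold below and KO 2 1.6-fold above the WT mean. Nlrc5 was at a log2 fold change of -0.82 with a standard error of 1.35 (adjusted p = 0.655, edgeR) over 6 libraries and of -3.90 with 0.74 (adjusted p = 0.0124) without KO 2.

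Within a library the members kept nearly the same order in FPKM, except in KO 1 and KO 3. In all WT libraries and in KO 2, B2m was highest, followed by H2-K1, H2-D1, Psmb8, Psmb9, Psmb10 and Tap1, then Tap2 and Tapbp in either order, with Nlrc5 lowest. The WT means ran from 1389 ± 226 FPKM for B2m, 787 ± 176 for H2-K1, 389 ± 60.3 for H2-D1 and 217 ± 64.4 for Psmb8 down to 30.9 ± 2.36 for Nlrc5 (SD, n = 3). The WT ranges of neighbours in this order did not overlap from B2m to Psmb8, nor between Tapbp and Nlrc5, but overlapped for every pair of neighbours between Psmb8 and Tapbp. In KO 3 Psmb10 stood at rank 2 with 25.8 FPKM, ahead of H2-K1 at 25.4 FPKM, whereas Psmb9 stood at rank 9 at 1.67 FPKM. In KO 1 Psmb10 was at rank 4. B2m remained first and Nlrc5 last in all 6 libraries.

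The genes whose profile over the 6 libraries was closest to that of the members were then listed. Closeness was the root mean square difference between a gene's centred log2 CPM and the median of the members, over all 6 libraries. Among the 5 nearest genes were H2-Q4 (0.0515), Sh2d2a (0.121), Irf1 (0.123) and Parp14 (0.172). H2-Q4 encodes a class Ib heavy chain, IRF1 is a transcription factor of the interferon-gamma response, and Sh2d2a encodes an adaptor protein of T cells. Sh2d2a was at only 0.399 and 0.104 CPM in KO 1 and KO 3. There the prior count of 2 used for log2 CPM weighs on its value, and thus on its closeness. H2-Q4 measured 144, 179 and 199.96 CPM in WT and 23.7, 233 and 8.64 CPM in KO 1, KO 2 and KO 3, but 36.4% of its 50-base windows occur in other genes. The members themselves differed from their median by 0.145 (H2-D1) to 1.04 (Psmb10) on this measure.

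For the rest of the class I pathway, 58 genes in 7 lists were tested. Over all 6 libraries 0 of 58 were called. Without KO 2, 42 were called lower (72.4%, against 28.3% of all genes) and 2 higher. Without KO 2 and WT 3, 21 were called lower (36.2%, against 13.9%) and 0 higher. The members had a lower median without KO 2 (-3.48) than any of these lists, as the plot of the pathway genes shows. Over all 6 libraries the list medians ran from -1.02 (PA28 activator) to -0.29 (transcription factors), beside -0.95 for the members.

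Class Ib genes of the MHC came closest to the members. Of 16 listed, 11 were in the table used, 8 were called lower without KO 2 and 3 were not called, with a median of -2.55. H2-T23, which encodes Qa-1, the ligand of inhibitory receptors of natural killer cells, measured 156, 201 and 166 CPM in WT and 35.3, 233 and 23.9 CPM in KO (-2.55, adjusted p = 0.00798, edgeR without KO 2). H2-M3, which presents formylated peptides, was at -1.89 (adjusted p = 0.00798) in that fit. H2-Q4 was lowest at -3.43, and H2-Bl, with 8 to 20 reads per library, was highest at 1.02 (adjusted p = 0.0768). H2-T22 was lowest over all 6 libraries (-1.01), but 53.5% of its windows are shared, chiefly with H2-T10.

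Among transcription factors of the class I promoters, 8 of 13 were called lower and 1 higher without KO 2, with a median of -0.58. Irf1 was lowest, at 126, 197 and 178 CPM in WT and 21.6, 233 and 10.05 CPM in KO (-3.40, adjusted p = 0.00798, edgeR). Ciita, the class II counterpart of Nlrc5, was at -2.35 (adjusted p = 0.00798). Rfx5, a subunit of the factor that binds the X box, was at -0.58 (adjusted p = 0.0155), from 53.2 to 59.5 CPM in WT and at 36.1, 55.8 and 38.4 CPM in KO 1, KO 2 and KO 3. Nfyb, a subunit of the CCAAT-binding factor, was called higher at 0.52 (adjusted p = 0.019).

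In interferon-gamma signaling, 4 of 7 genes were called lower and 1 higher without KO 2, with a median of -0.72. Jak1 was highest at 0.67 (adjusted p = 0.0361, edgeR). Ifng, the cytokine itself, had 30, 30 and 27 reads in WT and 6, 48 and 0 reads in KO 1, KO 2 and KO 3. The 0 in KO 3 allows up to 3 reads, or 0.156 CPM, and counting error alone is covered by that limit.

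In the proteasome itself, 11 of 14 constitutive core genes were called lower without KO 2, but their median was -0.66. Psmb3 was lowest (-1.49, adjusted p = 0.00987) and Psma3 highest (-0.21, adjusted p = 0.343, edgeR). All 3 genes of the PA28 activator were called lower, at -2.07 for Psme1, -2.32 for Psme2 and -0.65 for Psme3, of which interferon raises the first pair. For trimming and loading of peptides, 5 of 6 genes were called lower, with a median of -1.04. Erap1, the aminopeptidase that trims peptides in the endoplasmic reticulum, was lowest (-2.26), the chaperones Pdia3, Canx and Calr were at -1.36, -1.04 and -1.01, and Lnpep was highest (0.26, adjusted p = 0.126). Of the class I-like genes outside the MHC, 3 of 4 were called lower, from Cd1d1 (-2.57), which presents lipids, to Fcgrt (0.20, adjusted p = 0.347), the neonatal Fc receptor.

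**Figure D4:**
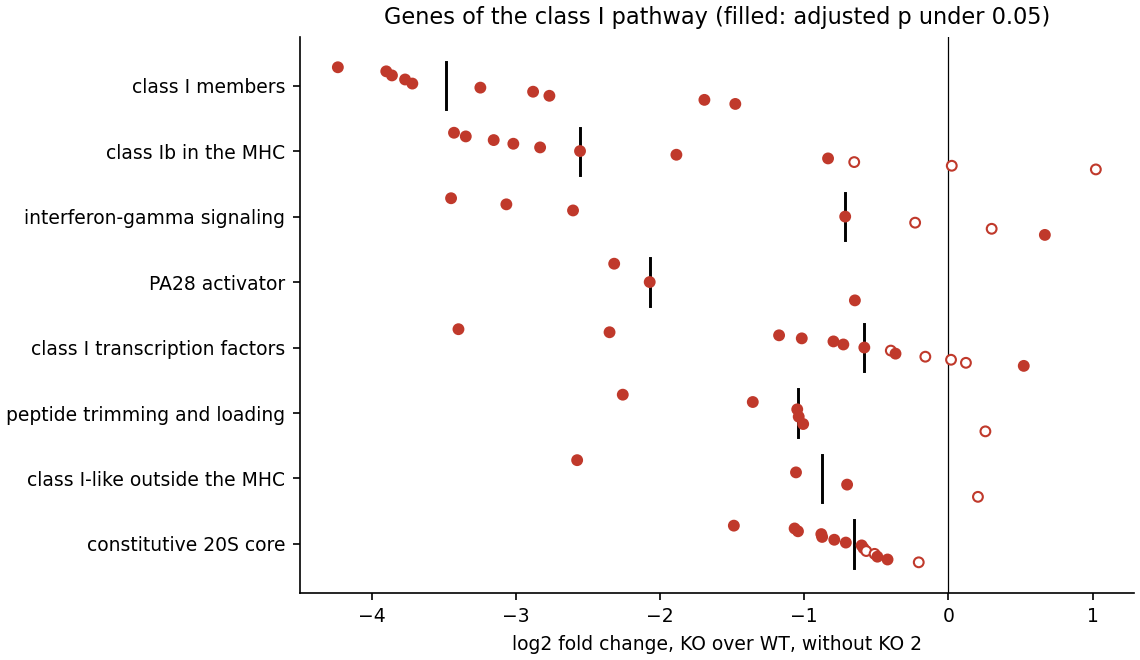
Log2 fold change (KO over WT, edgeR without KO 2) of each gene of the class I members and of 7 other lists of the pathway, with filled points at an adjusted p under 0.05 and black bars at each list's median. The members lie farthest to the left (median -3.48), followed by the class Ib genes (-2.55) and PA28 (-2.07), and the constitutive 20S core lies near -0.66.

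Markers of several cell types moved with the class I genes, and their part in the result was not tested. Over all 6 libraries 0 genes of the cell type lists were called. Counts below are without KO 2, to be read against 28.3% of all genes called lower and 24.5% called higher. The summed level of the 10 members was 3349 to 4566 CPM in WT and 616, 5528 and 321 CPM in KO 1, KO 2 and KO 3. The T cell list (9 of 10 genes in the table used, 7 called lower) summed to 57.1 to 58.1 CPM in WT and to 45.8, 75.0 and 24.1 CPM in KO. Its marker Cd3e was at 2.33 to 3.14 CPM in WT and at 0.342, 4.72 and 0.208 CPM in KO, and Cd8a was at 6.41 to 8.42 CPM in WT and at 1.25, 9.04 and 0.625 CPM in KO. Both were above 0 in every library. Cd4, named after its values were seen, went another way, at 7.29 to 10.4 CPM in WT and at 22.9, 10.1 and 3.64 CPM in KO 1, KO 2 and KO 3 (0.60, adjusted p = 0.482, edgeR without KO 2), and it made up much of the sum of KO 1. Cd247, also named after its values were seen, was at 18.3 to 22.3 CPM in WT and at 17.4, 21.6 and 16.6 CPM in KO 1, KO 2 and KO 3. It was not called (-0.29, adjusted p = 0.17, edgeR without KO 2), and it made up most of the sum of KO 3.

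The dendritic cell list (4 of 6 called lower) summed to 75.8 to 115 CPM in WT and to 22.8, 86.4 and 20.4 CPM in KO 1, KO 2 and KO 3. Itgax was at 5.42 and 1.51 CPM in KO 1 and KO 3 against 53.6 to 90.1 CPM in WT, and Xcr1 was at 0 reads in both. Itgax made up most of the WT sum. Flt3, also named after its values were seen, was at 3.98 to 6.14 CPM in WT and at 8.33, 5.07 and 8.23 CPM in KO 1, KO 2 and KO 3 (0.72, adjusted p = 0.0587). The microglia and macrophage list (7 of 12 lower, 1 higher) summed to 1210.3 to 1274 CPM in WT and to 810.3, 1683 and 718 CPM in KO. Within it, Aif1 was called lower (-1.49, adjusted p = 0.00798, edgeR without KO 2), whereas Csf1r was at 136 to 169.5 CPM in WT and at 147, 196 and 148 CPM in KO (-0.01, adjusted p = 0.972). The gene called higher was P2ry12 (1.09, adjusted p = 0.0433, edgeR without KO 2), also named after its values were seen. It was at 16.6 to 36.9 CPM in WT and at 54.7, 36.7 and 48.3 CPM in KO 1, KO 2 and KO 3. The class I sum per microglial sum was 2.63 to 3.77 in WT, 3.28 in KO 2, and 0.76 and 0.447 in KO 1 and KO 3.

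Sums of the tumor gene lists were also lower than in WT in KO 1 and KO 3, whereas those of neurons, oligodendrocytes and astrocytes were higher. The glioma and neural progenitor list (7 of 8 lower) summed to 1047 to 1382 CPM in WT and to 389, 1233 and 277 CPM in KO 1, KO 2 and KO 3, and the proliferation list (8 of 8 lower) to 1138 to 2032 CPM in WT and to 126, 1254 and 49.0 CPM in KO. Mki67 was at 320.0 to 504 CPM in WT and at 32.0, 346 and 4.17 CPM in KO. Neuronal genes (8 of 8 higher) summed to 2215 to 5333 CPM in WT and to 11629, 4787 and 14036 CPM in KO, with Snap25 at 257 to 1090.3 CPM in WT and at 2657, 727 and 3132 CPM in KO. The oligodendrocyte list (1 of 6 higher) summed to 1284 to 3238 CPM in WT and to 7299, 3109 and 3758 CPM in KO. The astrocyte list (3 of 6 higher, 1 lower) summed to 2823 to 3585 CPM in WT and to 5687, 3900.1 and 5199.8 CPM in KO. Its gene called lower was Gfap (-2.24, adjusted p = 0.00798, edgeR without KO 2), also named after its values were seen. Gfap was at 1092 to 1143 CPM in WT and at 247, 823 and 224 CPM in KO 1, KO 2 and KO 3. The endothelial list (0 of 8 lower, 2 higher) summed to 171 to 209 CPM in WT and to 220.4, 198 and 159 CPM in KO, with Pecam1 at 21.7 to 29.3 CPM in WT and at 27.3, 23.8 and 16.7 CPM in KO. The counts of the endothelial and oligodendrocyte lists are thus near or under the share over all genes.

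Per unit of the tumor cell list, the class I sum was 3.17 to 3.51 in WT, 4.48 in KO 2, and 1.58 and 1.16 in KO 1 and KO 3. Per unit of the proliferation list it was 2.15 to 2.94 in WT and 4.88, 4.41 and 6.55 in KO 1, KO 2 and KO 3, so that the KO libraries were all above WT on that scale. Among the cell type lists, only the proliferation list gave this direction in KO 1 and KO 3. Per unit of each of the other lists, the class I sum in KO 1 and KO 3 was below every WT library. For the T cell list it was 13.4 and 13.3, against 58.6 to 79.6 in WT. For the endothelial list it was 2.79 and 2.01, against 19.5 to 22.6 in WT. The lower CPM of the class I genes went with a lower sum of tumor cell genes and a higher sum of neuronal genes in KO 1 and KO 3.

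**Figure D5:**
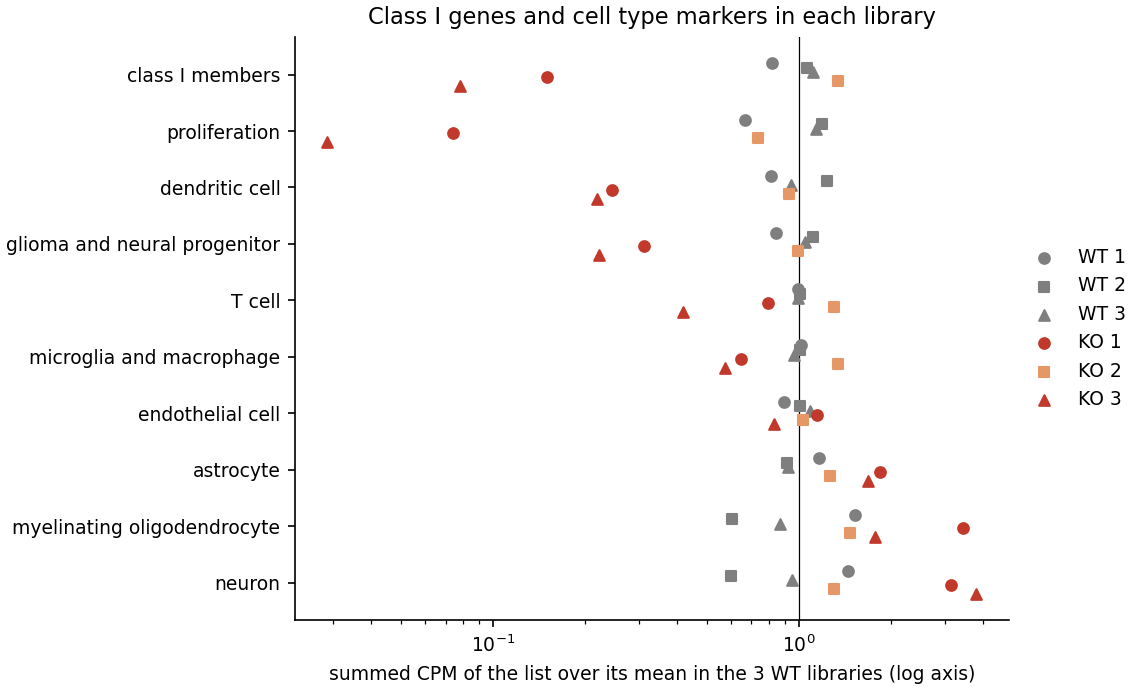
Summed CPM of the class I members and of 9 cell type lists in each library, divided by the mean of the 3 WT libraries (log axis, line at 1). In KO 1 and KO 3 the class I, proliferation, dendritic cell and glioma sums lie far to the left of 1 and the neuronal sum to the right, and KO 2 lies between 0.736 and 1.47 of the WT mean in every list.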

How the data were processed

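RNA-seq libraries of 6 tumors were grouped by their labels, 3 per group. The authors deposited whole read counts per gene, without normalization, and FPKM per gene and library. The sample labels name the mm10 genome and a NEBNext Ultra kit, and the paper names hg38, STAR, HTSeq and an Ovation kit. The submitters' processing notes name CASAVA 1.8.2 and edgeR. Strand use in counting is not given in the sources used here. The authors' fold changes, p-values, false discovery rates and scaled values were not used. All genes of the table were counted in 4 or more libraries, with 5 or more reads in one of them, and genes below that limit cannot be assessed.

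The fits used edgeR 4.0.16 in R 4.3.3: its filterByExpr step (about 10 counts in as many libraries as the smaller group, and 15 in all), TMM scaling and quasi-likelihood F tests, with p-values adjusted by Benjamini-Hochberg across the genes tested. A gene was called at an adjusted p under 0.05. Log2 CPM for profiles used a prior count of 2. Alternatives were RLE and upper quartile scaling, other count filters, limma-voom (limma 3.58.1), DESeq2 1.42.0, the exact test of edgeR on tag-wise dispersions, the replicate number as a block, and libraries left out. DESeq2, the exact test and limma-voom without KO 2 were chosen after seeing the data. Ratios within a library were compared by an exact two-sided permutation test. Counts with known changes were simulated at a dispersion of 0.05 for every gene. On these, the 3 against 3 fit called 100% of the 8-fold and 48% of the 2-fold changes. The 2 against 3 fit called 99% and 33%. These shares do not carry over to the members, whose median log2 difference to WT had an SD of 2.44 over the KO libraries.

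The members and the gene lists were chosen with earlier results of these data known. Genes were named by rule: all members, Esm1, the constitutive partners, the lowest and highest gene of each pathway list with some preset ones, the 5 nearest profiles, and preset cell markers. A gene that this rule names is not reported here. H2-T22 was the lowest class Ib gene over all libraries and H2-Q4 without KO 2. Positions are from GENCODE on GRCm38, and promoters from RefSeq. Counting intervals are exact at 95%. Since PCR copies carried no mark, these intervals and the limit for a count of 0 hold for counting error alone. Tables and figures used Python 3.11.15, pandas 2.3.3, numpy 2.4.6, scipy 1.17.1 and matplotlib 3.10.9. The genes H2-T3, H2-Q6, H2-Q7, H2-Q9, H2-Q10, Cd1d2 and Trac were not analysed here.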

Additional observations from a re-analysis of the deposited data

How the results depend on the processing

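The class I result turned on the library labelled KO 2. With RLE scaling, upper quartile scaling, all genes kept, a mean of at least 10 counts, DESeq2, edgeR's exact test, limma-voom or the replicate block, 0 members were called and all 10 fold changes stayed negative, but DESeq2 gave no adjusted p to 6 of the 10, for which it shows the direction alone. The member median over 6 libraries was -2.32 with limma-voom, against -0.95. DESeq2 over 6 libraries called 410 genes lower, 709 higher and 2 other pathway genes lower, and edgeR's exact test called 39 and 66 genes. Leaving out each replicate in turn gave 0 to 4608 genes lower, 0 to 3986 higher, 0 to 10 members lower, 0 to 42 other pathway genes lower and 0 to 2 higher, with a median log2 fold change of the members from -3.48 to -0.40 and one of Esm1 from -3.89 to -1.30. The larger values all came from leaving out KO 2, and with any other library left out the counts were 0. Where a group was left with fewer libraries, the same spread is assumed for both groups.

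Without KO 2 and WT 3, 2244 genes were lower and 464 higher, 9 members and 21 other pathway genes were lower, and Esm1 was at -3.02 (adjusted p = 0.0425, edgeR). Without KO 2, in fits chosen after seeing the data, DESeq2 gave 4657 lower, 4551 higher, 10 members lower, 42 other pathway genes lower, 2 higher, a member median of -3.46 and Esm1 at -3.94. The exact test gave 4639, 4317, 10, 41, 2, -3.48 and -3.90 for the same quantities, and limma-voom gave 4536, 4231, 10, 43, 2, -3.62 and -3.64. The cause of the dependence was not tested.

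Whether the replicate numbers pair the samples was not settled. Deviations of same-numbered libraries from their group means correlated at 0.55, 0.59 and -0.21 over genes, and those of WT 1 and KO 3 at 0.54. Deviations within a group of 3 sum to 0, so these correlations are not independent and cannot decide it. With the replicate number as a block, 0 genes were called in either direction, the member median was -2.32 and Esm1 was at -2.47 (adjusted p = 0.148, edgeR). Under the pairing the mean differences of the 5 ratios are the same by arithmetic, and each gave p = 0.5 in the exact sign-flip test, which cannot go below 0.25 with 3 pairs. The smallest count of a member was 30 (Psmb9 in KO 3), and whether depth limited the members was not tested.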
